A study of Homo sapiens with 16 samples.

Results

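Genes of the mitotic spindle, the kinetochore and cytokinesis were followed in RNA-Seq of MUTZ-3 cells, a human acute myeloid leukemia (AML) line with inv(3), in which *EVI1* is driven by a relocated enhancer. The set was listed by name with earlier results of these data known. It holds 54 of the 60623 genes in the files, and all 54 were found in each of the 16 libraries. Its counts beside the share of all genes are therefore a description. In the PARP inhibition (PARPi) experiment, cells received talazoparib at 1 µM, olaparib at 10 µM or DMSO as the vehicle and were harvested at 12, 24 or 48 h, and 1 library of untreated cells was taken at 0 h. For the knockdown, cells were transduced with a pLKO.1 lentivirus carrying a non-targeting control (NTC) or 1 of 2 shRNAs against *EVI1*, shEVI1-2531 and shEVI1-2532, selected with puromycin and harvested at day 3 or day 6. Every condition was sequenced once, so the spread between hours or between days is the only error these data hold. All cells carried inv(3), and all were grown with GM-CSF and medium conditioned by 5637 cells, a bladder carcinoma line.

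Entry into mitosis is driven by CDK1 bound to cyclin B, together with the kinases PLK1, AURKA and AURKB. Kinetochores, built on centromeres that contain CENPA, attach chromosomes to spindle microtubules, and the checkpoint kinases and their partners hold the cell until the attachments are complete. CDC20 then activates the anaphase-promoting complex (APC/C), which marks securin and cyclin B for destruction, and ANLN, ECT2 and several kinesins complete cell division. Most of these genes are transcribed in G2 and M phase, when the MuvB complex acts with MYBL2 and FOXM1, and are repressed in resting cells, when MuvB is part of the DREAM complex. In a dividing leukemia line their summed RNA is therefore widely used as a measure of proliferation.

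Total counts were 55999673 to 72681943 in a library of the PARPi time course and 95523038 to 120716213 in one of the knockdown, so that 3 counts, the smallest level regarded as measurable, were worth 0.0249 to 0.0536 CPM. CPM, the unit of all levels here, is the count of a gene per 1e+06 counts of its library after scaling with TMM, and ratios of single libraries carry 95% exact intervals that cover counting error only. Genes are called lower or higher at an adjusted p under 0.05 in the quasi-likelihood test of edgeR, with Benjamini-Hochberg adjustment over all genes tested. Of 8 myeloid and progenitor markers, *PTPRC*, a gene of all leukocytes, was at 303 to 565 CPM and *SPI1*, a myeloid transcription factor, at 192 to 555 CPM over all libraries. Over all libraries *CD33* was at 76.6 to 183 CPM and *MPO* at 603 to 4830 CPM. *KIT* was at 9.45 to 128 CPM and *ITGAM* at 24.6 to 406 CPM. The levels of *CD14* and *CD34* moved with the groups. *CD14*, a monocyte marker, had log2 ratios of 4.54 and 5.12 with olaparib and talazoparib at 48 h and of 4.58 and 5.46 with shEVI1-2531 and shEVI1-2532 at day 6, whereas *CD34*, a progenitor marker, had −1.45, −1.91, −3.02 and −7.48. The summed level of the 8 was 2230 to 4330 CPM in the PARPi libraries and 3130 to 5960 CPM in those of the knockdown, and the part of these markers' changes in the results was not tested. Of 10 epithelial markers chosen because 5637 cells had conditioned the medium, *KRT5* was at 0 in all libraries, *EPCAM* and *CDH1* reached at most 0.0631 CPM, and the summed level without *KRT17* was 1.04 to 11.7 CPM. The sum of all 10, nearly all of it *KRT17*, was 88.0 to 146 CPM without inhibitor, 169 to 905 CPM with olaparib and 165 to 1016 CPM with talazoparib, and 238 to 309.8 CPM with NTC, 648 to 895 CPM with shEVI1-2531 and 926 to 1129 CPM with shEVI1-2532. Relative to the control of the same time, *KRT17* was thus higher and the summed mitotic genes lower in each inhibitor and shEVI1 library. Between controls both could move the same way. With NTC at days 3 and 6, *KRT17* was at 303 and 226 CPM and the summed mitotic genes at 3916 and 3153 CPM. What *KRT17* has to do with the mitotic genes was not tested.

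*MECOM*, the gene from which *EVI1* is transcribed, was lower with both shRNAs. Its counts are those of the whole gene, in which *EVI1* and the longer *MDS1-EVI1* transcript cannot be told apart. It was at 40.6 and 37.2 CPM with NTC, 13.2 and 17.5 CPM with shEVI1-2531 and 5.14 and 4.31 CPM with shEVI1-2532 at days 3 and 6. In the PARPi experiment it was at 28.3 CPM in untreated cells, 49.0, 49.3 and 61.7 CPM with DMSO, 44.4, 38.4 and 23.4 CPM with olaparib and 44.8, 30.8 and 10.1 CPM with talazoparib at 12, 24 and 48 h. Relative to the control of the same time, 12.7% and 11.6% of the *MECOM* level remained with shEVI1-2532 and 32.4% and 47.1% with shEVI1-2531, so that *MECOM* was lower with shEVI1-2532 at both days.

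The promoters show what these genes have in common apart from their names. G2/M genes often carry a cell cycle genes homology region (CHR), here searched as TTTGAA or TTTAAA, near the transcription start and CCAAT boxes, the sites of NF-Y, further upstream. RefSeq promoters of GRCh38.p14, from 250 bases before to 50 after the start, were given for 48 of the 54 genes (58 promoters), and both strands were searched. TTTGAA was present in 36 of the 58 promoters (62.1%), against 15.2% of all 35116 promoters and 12.4% of the 22198 promoters of protein-coding genes. Between 40 bases before and 10 after the start, 24 of the 58 (41.4%) had it, against 2.72% of all promoters. CCAAT was found in 42 of 58 (72.4%), against 34.6% of all, and TTTAAA in 17 (29.3%), against 12.2%. The E2F core GCGGGAA, typical of genes of G1/S, was found in 7 promoters of 6 genes (12.1% of the 58). It was in 6.55% of all promoters and 8.13% of those of protein-coding genes. A match of these letters is a description of the sequence and not a bound site.

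The promoters of 5 genes are printed because their genes stand at different ends of the results, each as the 120 bases before the start, 5′ to 3′ on the coding strand, with the CHR in both spellings and the CCAAT box in capitals on either strand. They are chr1:43358861-43358980 for CDC20, plus strand, chr10:92593010-92593129 for KIF11, plus strand, chr9:89311075-89311194 for CKS2, plus strand, chr1:214603075-214603194 for CENPF, plus strand, and chr15:40382601-40382720 for KNSTRN, plus strand.
CDC20: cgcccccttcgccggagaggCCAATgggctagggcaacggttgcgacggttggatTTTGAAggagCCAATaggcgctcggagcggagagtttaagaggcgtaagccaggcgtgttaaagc
KIF11: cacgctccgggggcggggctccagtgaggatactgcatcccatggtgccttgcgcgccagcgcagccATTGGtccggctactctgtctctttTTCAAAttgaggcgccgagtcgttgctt
CKS2: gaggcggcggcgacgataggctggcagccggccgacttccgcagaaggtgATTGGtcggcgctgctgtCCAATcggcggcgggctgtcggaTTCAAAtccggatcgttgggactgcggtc
CENPF: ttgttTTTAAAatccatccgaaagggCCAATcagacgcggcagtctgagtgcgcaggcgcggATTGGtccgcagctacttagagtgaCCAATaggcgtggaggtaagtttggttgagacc
KNSTRN: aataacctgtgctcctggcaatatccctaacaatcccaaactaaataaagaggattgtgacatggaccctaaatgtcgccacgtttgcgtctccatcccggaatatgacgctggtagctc
*KIF11* and *CKS2* both had TTTGAA on the opposite strand, 28 and 29 bases before the start, and a CCAAT box 53 and 52 bases before it. *CKS2* had a further box at 70 and, upstream of the printed bases, another at 148. The log2 ratios of these genes to DMSO at 48 h were −1.86 with olaparib and −3.71 with talazoparib for *KIF11*, and −0.36 and −0.65 for *CKS2*. The promoter of *CDC20* had TTTGAA 65 bases upstream between CCAAT boxes at 100 and 55. Upstream of the printed bases it had TTTGAA again at 178. In the printed bases *CENPF* had TTTAAA at 115 and 3 CCAAT boxes at 94, 58 and 33, and it had TTTGAA 40 bases after the start. *KNSTRN* had none of these letters. Genes with TTTGAA (33) and without it (15) had median log2 ratios, averaged over both inhibitors, of −0.41 and −0.48 at 12 h, −0.96 and −1.11 at 24 h and −2.50 and −2.30 at 48 h, so the order of the medians was not the same at all hours. With shEVI1-2531 they were −0.69 and −0.37 and with shEVI1-2532 −1.77 and −1.37.

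In the PARPi time course the RNA of the mitotic genes was lower with each inhibitor at each hour, and more so with time. Summed over the 54 genes it stood at 5419, 5849 and 4972 CPM with DMSO at 12, 24 and 48 h, at 4495, 3626 and 1918 CPM with olaparib and at 3821, 2086 and 706 CPM with talazoparib. Untreated cells at 0 h were at 4255 CPM, below olaparib at 12 h. The sums with inhibitor are 82.9%, 62.0% and 38.6% of DMSO for olaparib and 70.5%, 35.7% and 14.2% for talazoparib. In bulk RNA, fewer mitotic cells and less RNA per cell cannot be told apart. The median log2 ratio of the genes was −0.28, −0.66 and −1.52 with olaparib and −0.56, −1.44 and −3.36 with talazoparib. For all 17218 genes tested the median stayed near 0, as scaling with TMM is built to give. The median of −0.28 with olaparib at 12 h was smaller in size than the SD of 0.338 among the medians of 4 ratios between controls. A log2 ratio at or under −1 was reached by 0, 7 and 49 of the 54 genes with olaparib, against 1.97%, 2.54% and 7.84% of all genes. With talazoparib it was reached by 1, 51 and 52 genes, against 1.77%, 3.90% and 14.5%.

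**Figure D1:**
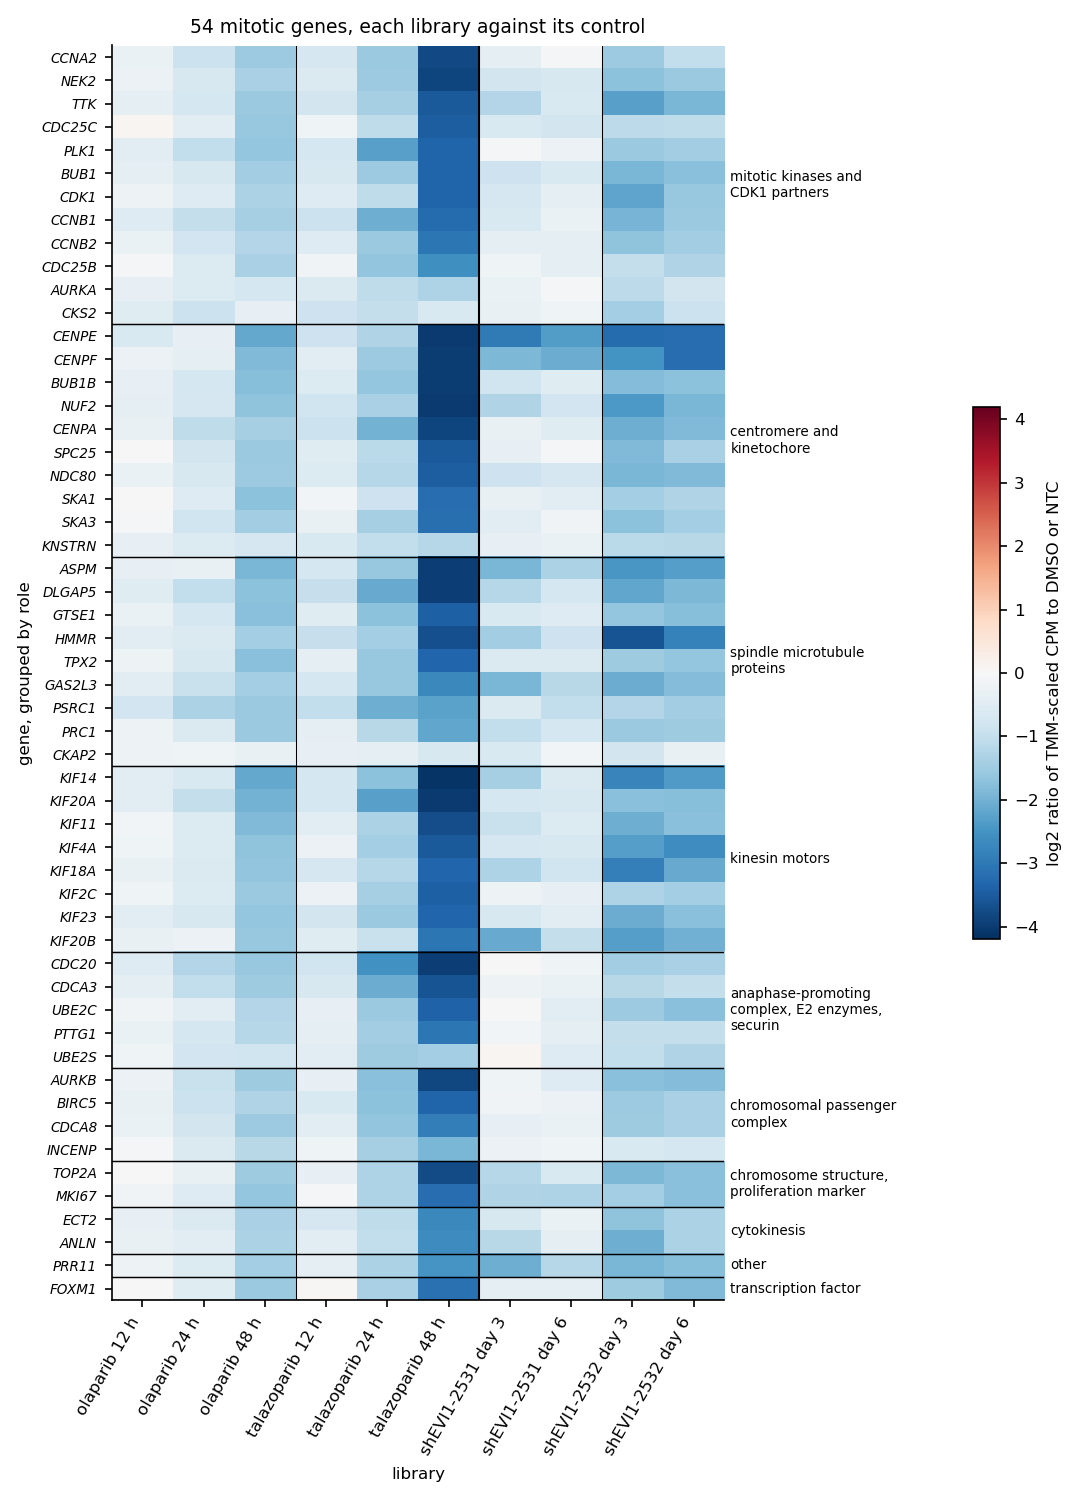
Log2 ratio of TMM-scaled CPM of each inhibitor or shEVI1 library to its control of the same hour or day (columns) for the 54 mitotic genes (rows, grouped by role and ordered by the ratio at 48 h), with blue for lower and red for higher. The talazoparib 48 h column is the darkest, with ratios from −4.13 to −0.65, and *CKS2* and *CKAP2* are the palest rows there.

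At 12 h the lowest ratios, as the mean log2 ratio of both inhibitors to DMSO, were those of *PSRC1* (−0.92), *CENPE* (−0.75) and *CCNB1* (−0.73). *PSRC1* (ENSG00000134222) encodes a microtubule protein of the spindle and is also a known p53 target. It was at 19.5 CPM in untreated cells, 31.9, 37.8 and 34.2 CPM with DMSO, 18.2, 15.0 and 11.7 CPM with olaparib and 15.6, 9.04 and 7.13 CPM with talazoparib at 12, 24 and 48 h. All 6 inhibitor libraries were below the 4 libraries of DMSO and untreated cells, and its ratios at 12 h were −0.81 (95% interval −0.91 to −0.70) with olaparib and −1.03 (95% interval −1.14 to −0.93) with talazoparib. *CENPE*, the kinetochore motor that moves chromosomes to the spindle equator, was at 12.6 CPM in untreated cells, 23.8, 20.0 and 22.8 CPM with DMSO, 15.3, 15.9 and 5.14 CPM with olaparib and 13.2, 8.30 and 1.41 CPM with talazoparib at 12, 24 and 48 h. Its olaparib libraries at 12 and 24 h and its talazoparib library at 12 h lay above the untreated library, so the groups overlapped. *CCNB1*, cyclin B1, was at 187 CPM in untreated cells, 276, 366 and 300.3 CPM with DMSO, 188, 184 and 115 CPM with olaparib and 146, 89.2 and 32.3 CPM with talazoparib at 12, 24 and 48 h, and its talazoparib libraries were below all libraries without inhibitor from 12 h on. Nearest to DMSO at 12 h were *CDC25C* (−0.04), a phosphatase that activates CDK1, and *FOXM1* (0.05), a transcription factor of G2/M genes.

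*CDC25C* was at 10.2 CPM in untreated cells, 15.9, 18.6 and 22.8 CPM with DMSO, 17.0, 13.3 and 7.59 CPM with olaparib and 14.1, 8.82 and 2.08 CPM with talazoparib at 12, 24 and 48 h. *FOXM1* was at 126 CPM in untreated cells, 112, 90.7 and 64.2 CPM with DMSO, 115, 63.1 and 22.0 CPM with olaparib and 117, 35.6 and 7.23 CPM with talazoparib at 12, 24 and 48 h. At 12 h both inhibitor libraries of *FOXM1* were within 0.06 of DMSO on the log2 scale, with ratios of 0.03 (95% interval −0.02 to 0.08) and 0.06 (95% interval 0.02 to 0.11), and at 48 h they were −1.54 (95% interval −1.64 to −1.45) and −3.15 (95% interval −3.31 to −2.99). Most other genes were already lower at 12 h. Of 54, 51 were below DMSO with olaparib and 53 with talazoparib, against 51.8% and 50.4% of all genes.

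By 24 h the order had changed, with *CDC20* (−1.88), *PSRC1* (−1.70) and *PLK1* (−1.66) in front. Genes with short transcripts had the lower ratios with olaparib at 24 h. Spearman's rho between ratio and transcript length over the 54 genes was 0.439 there and 0.0975 with talazoparib. The part of transcript length in this order was not tested. *CDC20* (ENSG00000117399) was at 188 CPM in untreated cells, 241, 266 and 152 CPM with DMSO, 164, 114 and 50.2 CPM with olaparib and 134, 45.5 and 9.92 CPM with talazoparib at 12, 24 and 48 h. *PLK1*, a kinase of mitotic entry and of centrosomes, was at 215 CPM in untreated cells, 248, 257 and 174 CPM with DMSO, 182, 127 and 56.0 CPM with olaparib and 148, 52.5 and 16.9 CPM with talazoparib at 12, 24 and 48 h. For both genes talazoparib at 24 h gave a lower level than olaparib did, and each inhibitor library at 24 and 48 h was below every library without inhibitor. At the other end were *KIF20B* (−0.59), a kinesin of cytokinesis, and *CKAP2* (−0.29), which binds spindle microtubules. *KIF20B* was at 26.1 CPM in untreated cells, 43.7, 41.9 and 38.0 CPM with DMSO, 35.5, 35.2 and 12.7 CPM with olaparib and 30.4, 22.1 and 4.65 CPM with talazoparib at 12, 24 and 48 h. Its olaparib library at 24 h was at a log2 ratio of −0.25. *CKAP2* was at 67.1 CPM in untreated cells, 125, 138 and 129 CPM with DMSO, 108, 120.0 and 103 CPM with olaparib and 97.7, 105 and 80.9 CPM with talazoparib at 12, 24 and 48 h. Every inhibitor library of *CKAP2* exceeded the untreated library, which was the lowest of the 10.

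At 48 h the lowest ratios were those of 3 genes of motor proteins, *KIF14* (−3.15), *CENPE* (−3.08) and *KIF20A* (−3.01). *KIF14*, a kinesin of the midbody, was at 20.2 CPM in untreated cells, 29.5, 26.4 and 22.8 CPM with DMSO, 21.3, 17.0 and 5.09 CPM with olaparib and 17.8, 8.03 and 1.30 CPM with talazoparib at 12, 24 and 48 h. *KIF20A*, which carries the chromosomal passenger complex to the midzone, was at 42.6 CPM in untreated cells, 75.1, 81.6 and 69.9 CPM with DMSO, 53.7, 40.5 and 17.5 CPM with olaparib and 45.1, 16.7 and 4.31 CPM with talazoparib at 12, 24 and 48 h. The talazoparib 48 h library had the lowest value of both genes, at ratios of −4.13 (95% interval −4.52 to −3.76) for *KIF14* and −4.02 (95% interval −4.23 to −3.82) for *KIF20A*. *CKS2* (−0.51) and *CKAP2* (−0.50) were nearest to DMSO. *CKS2*, a small subunit of CDK complexes, was at 72.0 CPM in untreated cells, 113, 155 and 136 CPM with DMSO, 80.5, 83.1 and 106 CPM with olaparib and 62.7, 77.1 and 86.6 CPM with talazoparib at 12, 24 and 48 h. Its olaparib and talazoparib libraries at 48 h lay above those at 24 h, and every inhibitor library except talazoparib at 12 h was above the untreated one.

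**Figure D2:**
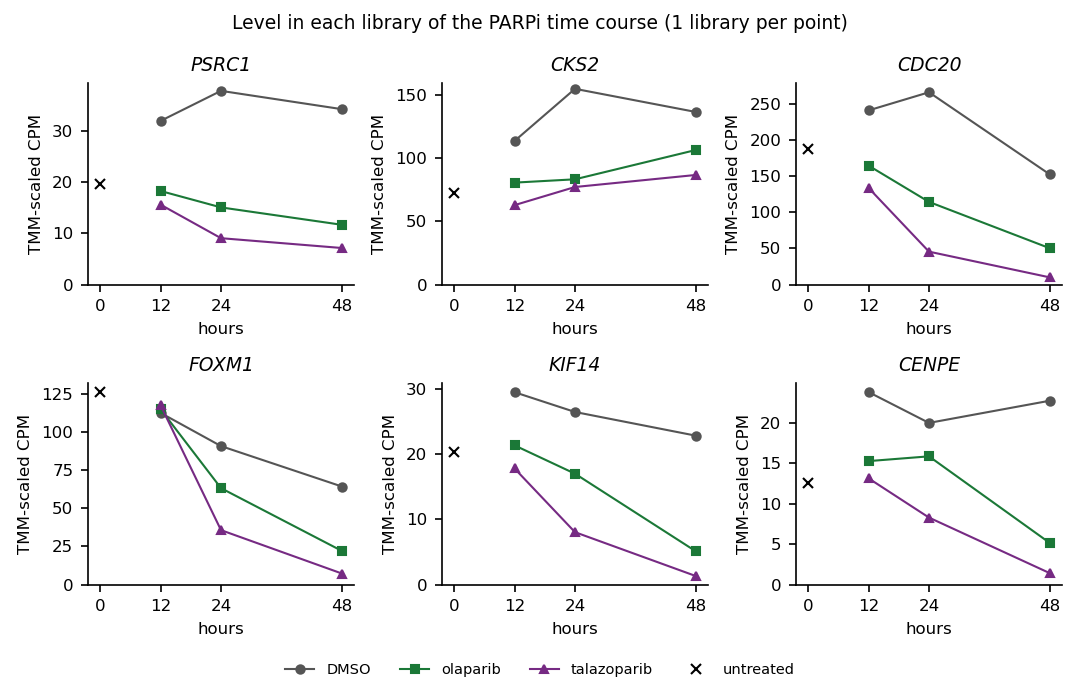
TMM-scaled CPM (vertical axis, from 0) against hours of culture for 6 genes, 1 library per point, with DMSO as grey circles, olaparib as green squares, talazoparib as purple triangles and the untreated library as a cross. *FOXM1* starts at 112 to 117 CPM in all 12 h libraries and separates later, *PSRC1* is separated from 12 h on, and the inhibitor points of *CKS2* at 48 h lie above those at 24 h.

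The order of the genes differed between hours. Across the 54 genes Pearson's r was 0.108 and Spearman's rho 0.227 between 12 and 48 h, 0.508 and 0.443 between 12 and 24 h and 0.350 and 0.280 between 24 and 48 h. These describe genes of the same libraries, which are not independent replicates. The part of transcript length in the shifts between hours was not tested. *PSRC1* moved from rank 1 to rank 47, *CKS2* from 7 to 53, *CCNB1* from 3 to 38 and *KNSTRN* from 22 to 52. In the opposite direction, *TOP2A* moved from rank 48 to 14, *KIF11* from 40 to 9 and *KIF4A* from 46 to 15. The median gene had 18.5% of its 48 h log2 ratio at 12 h. *PSRC1* had 48.2%, *KNSTRN* 51.0% and *CKS2* 133%, while *TOP2A*, the topoisomerase that untangles sister chromatids, had 6.63% and *KIF11*, the motor that separates the spindle poles, had 10.4%.

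**Figure D3:**
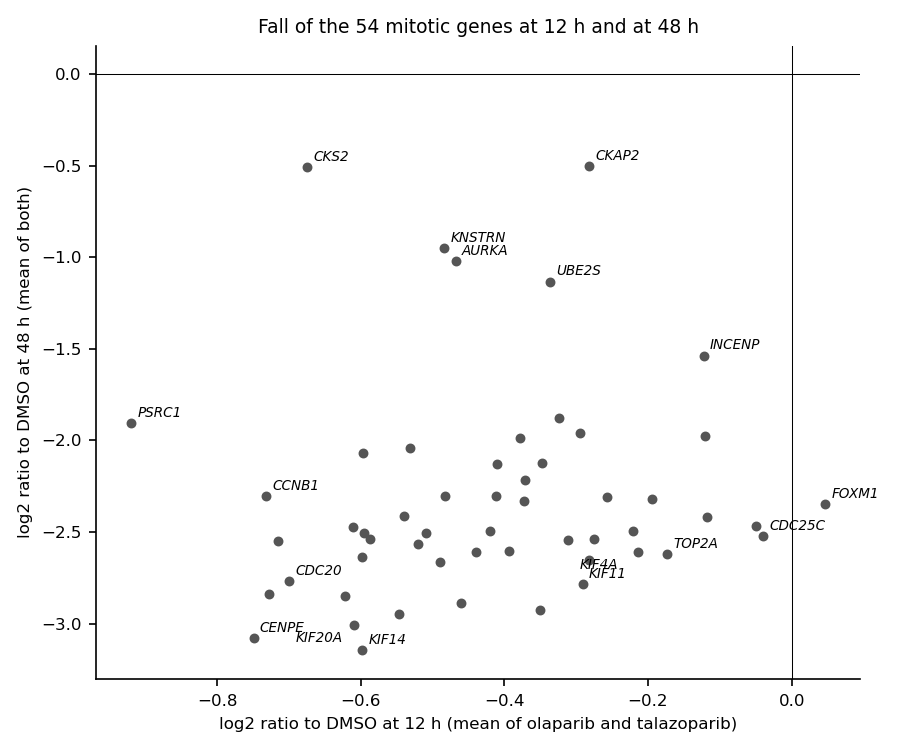
Mean log2 ratio of both inhibitors to DMSO at 12 h (horizontal axis) and at 48 h (vertical axis), with 1 point per gene and 0 marked by thin lines. Most genes lie between −2 and −3.15 at 48 h whatever their value at 12 h, and *CKS2*, *CKAP2*, *KNSTRN*, *AURKA* and *UBE2S* stand apart above them.

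Whether the inhibitor effect changed with time was tested in a fit with a slope per inhibitor on log2 hours, which left 2 residual degrees of freedom. In this fit edgeR used 1 trend of the spread for all genes (infinite prior degrees of freedom), so its p-values rest on that trend and not on each gene's own spread. The mean slope was called lower than 0 for 50 of the 54 genes and higher for none by edgeR, against 9.40% of all genes lower and 10.4% higher. The median slope was −1.01 per unit of log2 hours. The steepest were those of *CENPF* (−1.28), *KIF14* (−1.25) and *KIF11* (−1.24). The change of *KIF14* was −1.25 ± 0.14 (SE, edgeR, Benjamini-Hochberg adjusted p = 3.53e-16), and that of *FOXM1* was −1.20 ± 0.13 (SE, edgeR, Benjamini-Hochberg adjusted p = 1.21e-16). The 4 genes that did not pass were *CKS2* (0.08, 95% confidence interval −0.18 to 0.34), *CKAP2* (−0.11, −0.36 to 0.15), *KNSTRN* (−0.23, −0.49 to 0.03) and *AURKA* (−0.28, −0.53 to −0.02, edgeR, Benjamini-Hochberg adjusted p = 0.128). The slope of *CKS2* was below 0 after scaling to library totals, with the length trend removed and without DMSO or olaparib of 48 h. Without the DMSO library of 48 h the count of 50 dropped to 9.

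Averaged over hours and inhibitors, 10 of the 54 genes fell, against 1.06% of all genes, and none rose, against 2.93%. All 54 were lower at an unadjusted p under 0.05, as were 17.6% of all genes. The 10 genes called at an adjusted p under 0.05 were *PSRC1*, *CKS2*, *KNSTRN*, *AURKA*, *UBE2S*, *CCNB1*, *GAS2L3*, *PLK1*, *DLGAP5* and *CDC20*. The mean effect on *PSRC1* was −1.52 ± 0.18 (SE, edgeR, Benjamini-Hochberg adjusted p = 0.0136), followed by *KNSTRN*, an adaptor of the kinetochore, with −0.75 ± 0.11 (SE, edgeR, Benjamini-Hochberg adjusted p = 0.0191). *CDC20* had the largest mean effect of all 54, −1.80 ± 0.39 (SE, edgeR, Benjamini-Hochberg adjusted p = 0.0472). This test treats the hours as blocks with 1 effect for all of them, and the 4 genes whose effect did not pass the test of change with time include 3 of these 10. The count depended on the libraries. It was 53 without the 12 h libraries, 41 without those of 48 h and 0 without those of 24 h. Leaving out a single library gave 54 without DMSO or talazoparib of 12 h, 29 without talazoparib of 48 h, 1 without olaparib of 12 h and 0 without any 1 of the 24 h libraries or olaparib of 48 h.

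The inhibitors were given at different doses, 10 µM olaparib and 1 µM talazoparib, and shared their DMSO libraries. Olaparib by itself had no gene lower in the edgeR fit (0 of 17218 genes, 0%), with 26 of the 54 mitotic genes at an unadjusted p under 0.05, against 7.55% of all genes, and 7 called by DESeq2, against 0.530%. The count was 21 without DMSO of 12 h and at most 2 without any other single library. Talazoparib lowered 15 of the 54, against 1.18% of all genes, and 51 by DESeq2, against 10.9%. The 15 were the 10 above together with *CDCA3*, *CENPA*, *ECT2*, *KIF20A* and *KIF23*. The count with talazoparib was 54 without its own library or DMSO of 12 h, 44 without DMSO of 48 h, 1 without olaparib of 12 h or talazoparib of 48 h, and 0 without any 1 of the 24 h libraries or olaparib of 48 h. The ratio with talazoparib was the lower one for 52 of 54 genes at 12 h and for all 54 at 24 and 48 h, and the median difference was −0.26, −0.80 and −1.84 on the log2 scale. In the test of the difference over all hours no gene passed, with 0% of all genes called, 11 of the 54 lower at an unadjusted p under 0.05, against 0.761% of all genes, and 0 called by DESeq2. The widest difference was that of *CDC20*, −1.16 with a 95% confidence interval of −2.22 to −0.09, and the narrowest that of *CKAP2*, −0.22 (−0.47 to 0.02).

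The roles divide the 50 genes called in the slope test, a count that dropped to 9 without the DMSO library of 48 h. Of all genes, 9.40% passed for a slope below 0. By role, the 12 kinases and partners of CDK1 had medians of −1.38 with olaparib and −3.35 with talazoparib at 48 h, and 10 of them passed this test. Within this group *CCNA2* (cyclin A2) and *NEK2* reached −3.81 and −3.85 with talazoparib, and *AURKA* −1.30. The 10 genes of the centromere and kinetochore had medians of −1.62 and −3.70, and 9 passed the slope test, *KNSTRN* being the exception. *NUF2* and *NDC80*, which bind each other and the microtubule, reached −4.00 and −3.46 with talazoparib. Among the 4 genes of the chromosomal passenger complex, all of which passed the slope test, *AURKB* was at −3.82 and its scaffold *INCENP* at −1.92. The 8 kinesins, with medians of −1.68 and −3.47, all passed the slope test as well. So did the 5 genes grouped with the APC/C (*CDC20*, *UBE2C*, *UBE2S*, *CDCA3* and the securin gene *PTTG1*). Of these, the E2 enzymes *UBE2C* and *UBE2S* were at −3.39 and −1.42. *UBE2S* lies opposite *RPL28*, which had 2255030 counts over all libraries against 119646 for *UBE2S*, and the part of this overlap in its value was not tested. *MKI67*, the gene of the Ki-67 antigen, had ratios of −0.14, −0.54 and −1.62 with olaparib and −0.10, −1.29 and −3.21 with talazoparib at 12, 24 and 48 h.

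Genes of the same processes outside the set moved in part. Of 103 other mitotic genes, 71 passed the test for a slope below 0 and none for one above, against 9.40% and 10.4% of all genes, with a median of −0.61. Among them were 26 of 33 of the kinetochore and checkpoint, 15 of 18 of condensin, cohesin and separase, 18 of 24 of the spindle and 10 of 12 kinases and regulators. Of the 16 subunits, regulators and inhibitors of the APC/C, 2 passed (near the 9.40% of all genes), *ANAPC1* (−0.61) and the inhibitor *FBXO5* (−0.97), and the median was −0.07. Of 48 DNA replication genes, 43 passed for a slope below 0, with a median of −0.87. Their summed level was 95.8%, 68.7% and 46.8% of DMSO with olaparib and 99.4%, 59.7% and 23.3% with talazoparib, each higher than that of the mitotic genes. Of 27 regulators of G2/M transcription, 11 passed for a slope below 0 and 3 for one above. *MYBL2*, part of the complex that activates G2/M genes, had log2 ratios at 24 and 48 h of −0.61 and −1.55 with olaparib and −1.03 and −3.05 with talazoparib. *CDKN1A*, the CDK inhibitor p21, was at 219.8, 196 and 104 CPM with DMSO, 559, 534 and 596 CPM with olaparib and 686, 611 and 751 CPM with talazoparib at 12, 24 and 48 h, and was higher in all 6 inhibitor libraries.

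After *EVI1* knockdown the mitotic genes were lower with both shRNAs, and lower with shEVI1-2532 than with shEVI1-2531. Their summed level was 3916 and 3153 CPM with NTC at days 3 and 6, 2688 and 2290 CPM with shEVI1-2531 (68.7% and 72.6%) and 1290 and 1146 CPM with shEVI1-2532 (32.9% and 36.3%). The median log2 ratio was −0.64 and −0.52 with shEVI1-2531 and −1.72 and −1.60 with shEVI1-2532. At or under −1 were 16 and 8 of 54 genes with shEVI1-2531, against 11.7% and 8.37% of the 18606 genes tested, and 51 and 49 with shEVI1-2532, against 15.7% and 15.1%. In the edgeR fit, with the days as blocks and 2 residual degrees of freedom, all 54 fell with shEVI1-2532 (19.9% of all genes were lower) and 31 with shEVI1-2531 (7.90%). Both shRNAs shared their NTC libraries. The difference between them passed for 46 genes, all lower with shEVI1-2532, against 12.0% of all genes. With shEVI1-2531 the count was 18 without the NTC library of day 3 and 15 without the shEVI1-2531 library of day 3.

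With shEVI1-2532 the lowest ratios were those of *HMMR* (−3.24), *CENPE* (−3.22) and *CENPF* (−2.85), as the mean of both days. *HMMR*, the hyaluronan receptor RHAMM, which also binds spindle microtubules, was at 47.9 and 23.2 CPM with NTC, 17.3 and 12.6 CPM with shEVI1-2531 and 3.85 and 3.22 CPM with shEVI1-2532 at days 3 and 6. Its effect was −3.25 ± 0.22 (SE, edgeR, Benjamini-Hochberg adjusted p = 7.95e-07), and its difference between the shRNAs was −2.06 ± 0.21 (SE, edgeR, Benjamini-Hochberg adjusted p = 6.15e-05 in the same test). *CENPE* was at 10.6 and 7.02 CPM with NTC, 1.37 and 1.38 CPM with shEVI1-2531 and 1.14 and 0.756 CPM with shEVI1-2532 at days 3 and 6. Its 4 shEVI1 libraries all lay below NTC, at 1.38 CPM or less, and the difference of −0.58 between them (95% confidence interval −1.14 to −0.02) did not pass. *CENPF*, a large protein of the outer kinetochore, was at 48.1 and 56.0 CPM with NTC, 13.1 and 13.2 CPM with shEVI1-2531 and 8.43 and 6.15 CPM with shEVI1-2532 at days 3 and 6. Nearest to NTC were *INCENP* (−0.69) and *CKAP2* (−0.54). *INCENP* was at 55.5 and 76.8 CPM with NTC, 46.8 and 67.7 CPM with shEVI1-2531 and 35.8 and 45.7 CPM with shEVI1-2532 at days 3 and 6. *CKAP2* was at 97.4 and 58.9 CPM with NTC, 63.1 and 54.8 CPM with shEVI1-2531 and 57.7 and 47.3 CPM with shEVI1-2532 at days 3 and 6, with an effect of −0.54 ± 0.15 (SE, edgeR, Benjamini-Hochberg adjusted p = 0.014).

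shEVI1-2531 gave a different order, led by *CENPE* (−2.65), *CENPF* (−1.98) and *PRR11* (−1.62). The effect on *CENPE* was −2.64 ± 0.25 (SE, edgeR, Benjamini-Hochberg adjusted p = 5.52e-05). *PRR11*, a gene of cell cycle progression, was at 41.2 and 34.5 CPM with NTC, 9.85 and 15.2 CPM with shEVI1-2531 and 11.0 and 9.95 CPM with shEVI1-2532 at days 3 and 6, so that its levels with both shRNAs overlapped. Its difference between them was −0.25 (95% confidence interval −0.72 to 0.22) and did not pass, and it was above 0 without the shEVI1-2531 library of day 6. Nearest to NTC were *CDC20* (−0.10) and *PLK1* (−0.16). *CDC20* was at 150.5 and 144 CPM with NTC, 149.8 and 127 CPM with shEVI1-2531 and 54.1 and 56.4 CPM with shEVI1-2532 at days 3 and 6. *PLK1* was at 148 and 169.8 CPM with NTC, 139 and 144 CPM with shEVI1-2531 and 50.5 and 62.0 CPM with shEVI1-2532 at days 3 and 6. Both genes stayed close to NTC with shEVI1-2531 at both days and were below it with shEVI1-2532. With shEVI1-2531 the effect on *CDC20* was −0.10 ± 0.13 (SE, edgeR, Benjamini-Hochberg adjusted p = 0.674). This effect was above 0 without the shEVI1-2531 library of day 6. By role, 8 of 9 spindle genes, 7 of 8 kinesins and 7 of 12 kinases and CDK1 partners and 5 of 10 centromere and kinetochore genes fell with shEVI1-2531, against 7.90% of all genes. None of the 4 chromosomal passenger genes and the 5 genes grouped with the APC/C passed, and groups this small hold few called genes at that share. The 8 genes whose difference between the shRNAs did not pass were *CENPE*, *PRR11*, *KIF20B*, *PRC1*, *GAS2L3*, *CDC25C*, *MKI67* and *CKAP2*.

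**Figure D4:**
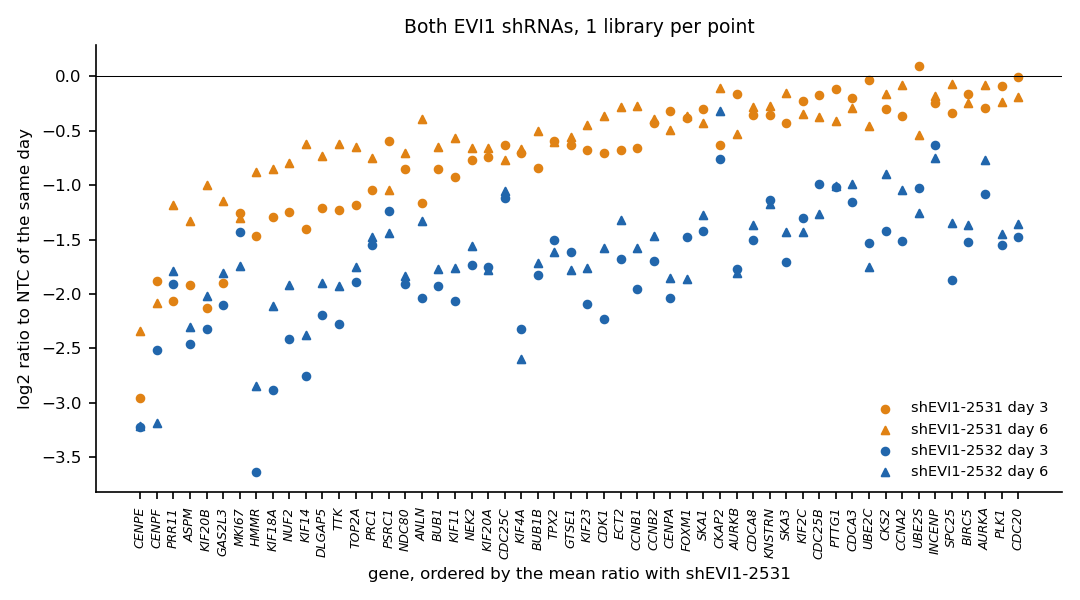
Log2 ratio to NTC of the same day (vertical axis) for each of the 54 genes, ordered by the mean ratio with shEVI1-2531, with shEVI1-2531 in orange, shEVI1-2532 in blue, day 3 as circles and day 6 as triangles. The blue points lie below the orange ones of the same day except for *PRR11* at day 3, and the colours draw together at the left end.

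Genes with long transcripts had the lower ratios with shEVI1-2531. Over the 54 genes Spearman's rho between the log2 ratio and the longest transcript in GENCODE 29 was −0.574 at day 3 and −0.366 at day 6 with shEVI1-2531, and −0.352 and −0.372 with shEVI1-2532. The 7 genes with transcripts of at least 5000 bases (*MKI67*, *ASPM*, *CENPF*, *CENPE*, *KIF14*, *KIF20B* and *TOP2A*) had a median ratio of −1.88 at day 3 and −1.30 at day 6 with shEVI1-2531, and the 11 genes under 2000 bases −0.32 and −0.41. All 7 long genes and 3 of the 11 short ones fell with shEVI1-2531 in the edgeR fit. The same trend was present over all genes in the library of shEVI1-2531 at day 3, with rho = −0.277 over 11398 genes with at least 200 control counts and medians of −0.20 for transcripts of at least 5000 bases and 0.20 under 2000, but not at day 6 (rho = 0.000232). DMSO at 24 h differed from DMSO at 12 h in the same way (rho = −0.328). Under PARPi, rho over the 54 genes was 0.439 with olaparib at 24 h and −0.474 at 48 h, where it was 0.293 and −0.147 over all genes, and it was −0.120 with talazoparib at 48 h. With the trend on transcript length removed from each library, an alternative chosen after the data were seen, 37 of the 54 genes fell with shEVI1-2531 and 54 with shEVI1-2532.

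**Figure D5:**
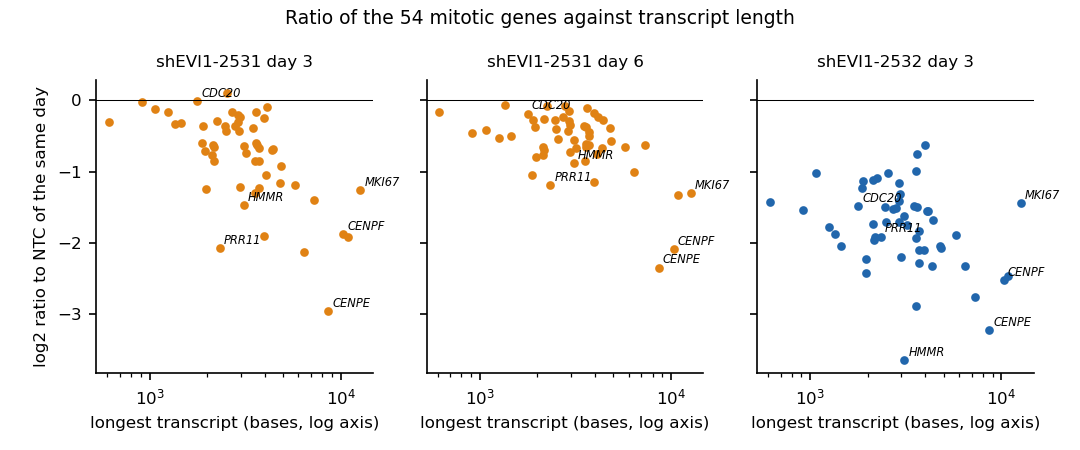
Log2 ratio to NTC of the same day (vertical axis) against the longest transcript in bases (horizontal axis, log scale) for the 54 genes in 3 knockdown libraries, 1 point per gene. The points slope down to the right with shEVI1-2531 at day 3, where *CENPE* is lowest at −2.96, and *HMMR* is lowest with shEVI1-2532 at day 3, at −3.64.

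The order of the genes was partly shared between the experiments. Across the 54 genes the ranking at 48 h of PARPi had Pearson's r of 0.632 and Spearman's rho of 0.587 with that of shEVI1-2532, and 0.367 and 0.338 with that of shEVI1-2531. The ranking at 12 h had 0.343 and 0.331 with that of shEVI1-2532. These values describe genes and carry no test, since the genes share libraries, depth and transcript length. *CENPE* was among the 3 lowest at 48 h and with each shRNA, and *CKAP2* was nearest to the control at 48 h and with shEVI1-2532. *CKS2*, next to it at 48 h of PARPi, had ratios of −1.42 and −0.89 with shEVI1-2532 at days 3 and 6. With shEVI1-2532, 77 of the 103 other mitotic genes were lower and 2 higher, against 19.9% of all genes lower. Of the 48 replication genes, 45 were lower and 0 higher. With shEVI1-2531 the counts were 31 and 0 of the 103 and 16 and 1 of the 48, against 7.90% of all genes lower. *CDKN1A* was at 206 and 162 CPM with NTC, 469 and 459 CPM with shEVI1-2531 and 610.2 and 488 CPM with shEVI1-2532 at days 3 and 6, above NTC in all 4 libraries.

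Some members could share reads with other genes, since the strand setting of the counting is not stated. Another gene overlaps 29 of the 54, in 22 cases on the opposite strand, as *BRD8* and *CDC23* do for *KIF20A*, *EXOSC9* for *CCNA2* and *RHNO1* for *FOXM1*. *PRC1* shares its strand with AC068831.7 and held only 4196 counts over all libraries. For 10 genes the files list pseudogenes by name. Those of *CDC20* and *UBE2S* had the most counts, 2225 for CDC20P1 and 2301 for UBE2SP1 over all libraries, against 170383 and 119646 for the genes.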

How the data were processed

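The data are 16 RNA-Seq libraries of MUTZ-3 cells, 1 per condition, made with the TruSeq Stranded mRNA kit. The submitters' processing notes name STAR, Picard and featureCounts and the builds hg38 and GRCh38, and versions are not given in the sources used here. Deposited were raw counts for each gene, which the authors made with featureCounts and which were used here, and TPM, which the deposited values show to be computed over the whole gene span and which were used only to check the counts.

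Genes were tested if 3 of 9 PARPi or 2 of 6 knockdown libraries had 10 counts or more, which kept all 54 mitotic genes. TMM-scaled counts were tested by quasi-likelihood in edgeR 4.0.16 in R 4.3.3, with hour or day as a block, and p-values were adjusted after Benjamini-Hochberg over all genes (threshold 0.05). The PARPi fit left 4 residual degrees of freedom, and the slope and knockdown fits 2. The untreated library entered the ratios and the TMM scaling of the PARPi libraries, and was not itself part of a fit. As libraries are not stated to be separate cultures, p-values measure no more than the spread between these libraries. That spread is partly borrowed from all genes, with prior degrees of freedom of 4.21 in the PARPi fit and 10.1 in the knockdown fit. In the slope fit it is the trend over all genes alone. Intervals of single ratios are exact (Clopper-Pearson). Alternatives were DESeq2 1.42.0, other scalings, filters and models, and libraries left out. The tests of the mean PARPi effect, of the slope and of each shRNA were checked on simulated data with 200 changed genes. These data had the same spread for all genes and no other difference between hours or days. The tests of each inhibitor and of the differences between inhibitors and between shRNAs were not checked in this way. Figures were drawn with matplotlib 3.10.9. The 54 genes, gene lists, motifs and rules were chosen with earlier results of these data known. Genes are named with values in every library if among the 3 largest or 2 smallest falls of a ranking (both inhibitors at 12, 24 or 48 h, or both days of an shRNA), with *MECOM* as the targeted gene and further genes by role.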

Additional observations from a re-analysis of the deposited data

Results flagged for a closer look

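The effect of the inhibitors differed between hours for 50 of the 54 mitotic genes, as tested by the slope on log2 hours in edgeR (quasi-likelihood, adjusted over all genes tested). Of all genes, 9.40% were lower in this test. All 50 slopes were below 0, and the genes outside this count were *CKS2*, *CKAP2*, *KNSTRN* and *AURKA*.

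The effect differed between the shRNAs for 46 of the 54 genes in the same kind of test, and was larger with shEVI1-2532 in each of them, against 12.0% of all genes lower. *MECOM*, the gene of *EVI1*, was also lower with shEVI1-2532 than with shEVI1-2531, at 5.14 and 4.31 CPM against 13.2 and 17.5 CPM at days 3 and 6.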

How the results depend on the processing

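All 54 genes fell with shEVI1-2532 under each other scaling, filter and tool, 50 without the day in the model and 53 to 54 with 1 library left out. The slope count of 50 was also 50 with DESeq2, and lay between 9 and 50 with 1 library left out (9 without DMSO of 48 h). The count of genes lower in the mean PARPi effect (10) was 54 with no filter on low counts, 44 with DESeq2, 6 with both inhibitors as 1 group, 0 without the hour in the model, 53, 0 and 41 without the 12, 24 or 48 h libraries, and 0 to 54 with 1 library left out. For talazoparib (15) the same alternatives gave 54, 51, 0 without the hour, and 53, 0 and 47 by hour left out, with 5 after scaling to the library total only, 7 with the length trend removed and 0 to 54 with 1 library left out. For olaparib (0) the count was 17 with no filter, 7 with DESeq2, 1 with the length trend removed, 15 and 2 without the 12 or 48 h libraries, and 0 to 21 with 1 library left out. For shEVI1-2531 (31) it was 7 without the day, 6 with both shRNAs as 1 group and 15 to 31 with 1 library left out. The difference between the shRNAs (46) gave 20 without the day and 42 to 46 with 1 library left out. The cause of these changes was not tested. Scaling to the library total moved all ratios of olaparib and talazoparib at 48 h by −0.19 and −0.28, and those of shEVI1-2531 by −0.17 at both days and of shEVI1-2532 by −0.26 and −0.35 on the log2 scale. It brought the median ratio with shEVI1-2532 at day 6 to −1.94. Signs reversed for the slope of *CKS2*, which was −0.033 after scaling to the library total, −0.15 with the length trend removed, −0.27 without DMSO of 48 h and −0.09 without olaparib of 48 h (up to 0.42 without DMSO of 12 h), and, without shEVI1-2531 of day 6, for the effect of shEVI1-2531 on *CDC20* (0.043, and −0.22 without the day 3 library) and the shRNA difference of *PRR11* (0.15, and −0.64). None of these 3 had passed a test. Leaving out single PARPi libraries and the length trend were chosen after the data were seen. Hour and day, which pair each library with its control, were already blocks in the reported tests of effects, and no replicate block could be added because the labels give no replicate numbers.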

Other observations

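The mitotic genes also differed between control libraries. Relative to untreated cells, DMSO at 12 h had a higher level of 48 of the 54. The other 6 were lower, as were 8483 of all 17218 genes tested. The median log2 ratio was 0.37 against 0.01 for all genes, and *AURKA* (1.03), *TTK* (0.98) and *CENPE* (0.92) had the highest ratios of those named. *FOXM1* (−0.16) and *UBE2S* (−0.20) were lower. From 24 to 48 h of DMSO, 43 of 54 were lower, against 8612 of all 17218 genes tested. The median of the 54 was −0.18, and *UBE2S* (−0.88) changed most.

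With NTC, 40 of 54 genes were lower at day 6 than at day 3, against 9378 of all 18606 genes tested. The median log2 ratio of the 54 was −0.40, against −0.009 for all genes. *CKS2* (−1.25), *CDK1* (−1.22) and *TTK* (−1.15) were among the lowest, while *CDC25B* (0.58) and *FOXM1* (0.57) were the highest. These are ratios of 1 library to another and carry no test. The genes were named after their values were seen.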
